A study of Mus musculus with 78 samples.

Results

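Newborn mouse brains carrying a conditional allele of Lis1 over a null allele (Lis1 ko/cko, 3 arrays) were compared with wild-type brains of mixed background A (mixed A, 3 arrays), both at P0, the day of birth. These are 6 of the 78 Affymetrix arrays of the series, taken by the genotype and age in their labels. Mixed A was the wild type used because its arrays lie on the same side of the first principal component at P0 as the Lis1 arrays, so the control was itself chosen from measured values. The series measured total brain RNA of mutants of Lis1, Ndel1, 14-3-3 epsilon and doublecortin at E14, P0 and P14, in 26 groups of 3 that the labels call biological replicates. It asks how alike mutants of this complex are in gene expression. The same labels give 3 Lis1 ko/+ brains, heterozygous for the null allele, and 3 wild-type brains each of mixed background B and of an inbred background (titled WT129s6) at P0, which are set beside the comparison. Both Lis1 groups are labelled as of mixed background, without saying which. The labels name no Cre line, no cell type in which the conditional allele is recombined, no brain region and no pooling of animals, and they describe the P0 samples as embryos at that age.

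LIS1, the product of Pafah1b1, binds the microtubule motor dynein and helps it hold on to microtubules under load. In the developing brain the motor positions mitotic spindles in dividing progenitors and pulls the nucleus forward in migrating neurons, both those that climb radially into the cortex and the GABAergic interneurons that enter it from the ganglionic eminences below, where striatal neurons are also born. Loss of 1 copy in humans causes lissencephaly, a cortex without folds.

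The samples were checked as brain by known markers. Stmn2, a neuronal tubulin-binding protein, was at 12.89 to 13.01 log2 units on the 6 arrays and the liver gene Alb at 3.54 to 3.89. Neurod6, of forebrain excitatory neurons, was at 10.66 to 11.08, while the midbrain gene En1 lay at 2.92 to 3.06 and the spinal cord and hindbrain gene Hoxb5 at 3.30 to 3.53. Of 33 midbrain, hindbrain and spinal cord genes on the array only 3 reached the expression floor of 5.25 log2 units, the median of all values, in any P0 group. RNA integrity can be read from actin, whose 3' probe set exceeded the 5' one by 0.154 to 0.205 log2 units in mixed A, 0.195 to 0.214 in Lis1 ko/cko and 0.277 to 0.358 in mixed B. The first component held 39.4% of the variance at P0, with 18 of the 30 arrays on the side of mixed A. All values are log2 RMA values, differences are Lis1 ko/cko minus mixed A with their standard error, and a gene is called at an adjusted p under 0.05 in limma over all 11779 genes tested. In bulk RNA, fewer cells of a type and less RNA per cell cannot be told apart.

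The targeted gene was lower. Its probe set of highest level read 10.57, 10.44 and 10.51 in mixed A and 10.01, 10.09 and 10.12 in Lis1 ko/cko, with 10.18, 9.91 and 9.94 in Lis1 ko/+. The mutant and mixed A arrays did not overlap, and the ko/cko and ko/+ arrays did. The difference was -0.43 ± 0.11 (adjusted p = 0.0344). Mixed B, at 10.11, 9.81 and 9.93, was as low as the mutants on this probe set, and against it the sign turned (0.13 ± 0.11, adjusted p = 0.383). Another Pafah1b1 probe set, singled out after its values were seen, separated both mixed wild types from both mutants: 10.30, 10.13 and 10.33 in mixed A and 10.30, 10.17 and 10.31 in mixed B, against 9.72, 9.69 and 9.71 in Lis1 ko/cko and 9.75, 9.74 and 9.70 in Lis1 ko/+. On it the ko/cko brains were 0.55 ± 0.07 below mixed A (adjusted p = 0.000279). A different probe set of the gene read 9.67, 9.46 and 9.64 in mixed A, 9.21, 9.25 and 9.16 in Lis1 ko/cko and 9.001, 8.99 and 8.83 in Lis1 ko/+ (-0.38 ± 0.10 for ko/cko, adjusted p = 0.0454). There mixed B, at 9.09, 8.89 and 9.15, was below Lis1 ko/cko. The remaining tested probe set, of lower level, was not called (-0.33 ± 0.30, adjusted p = 0.566), and its mixed A and ko/cko arrays overlapped. The sources used here do not place the probe sets relative to the deleted parts of the gene. The call of the first probe set was lost without Lis1 ko/cko replicate 1 (adjusted p = 0.103), Lis1 ko/cko replicate 2 (0.116) or mixed A replicate 3 (0.120).

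Genes of the complex around LIS1 gave no further call. Of 21 genes of the LIS1 and NDEL1 complex 1 was called (4.76%, beside 2.36% of all genes tested), Pafah1b1 itself, and the list's median difference was -0.03, the same as that of all genes tested. Ndel1, whose product binds LIS1 and dynein, differed by -0.05 ± 0.09. Pafah1b2 and Pafah1b3, the catalytic subunits that LIS1 joins in the brain platelet-activating factor acetylhydrolase, differed by -0.02 ± 0.07 and -0.05 ± 0.07. Ywhae, which encodes 14-3-3 epsilon, was at 0.07 ± 0.06, and Dcx, the microtubule protein doublecortin of migrating neurons, at 0.24 ± 0.17. None of these 5 was called. In limma 0 of 27 dynein and dynactin genes, 0 of 17 tubulins and 0 of 30 microtubule-associated proteins were called, with medians of 0.03, -0.04 and 0.06. Among 31 kinesins 1 rose (3.23%), Kif1a, the motor of synaptic vesicle precursors. It read 9.41, 9.31 and 9.37 in mixed A and 9.75, 9.84 and 9.90 in Lis1 ko/cko (0.46 ± 0.10, adjusted p = 0.0129).

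Over all genes the change at birth was small in size and mostly downward. Of the 11779 genes 278 were called (2.36%), 228 lower (1.94%) and 50 higher (0.424%). The median called difference was -0.47 among the lower genes and 0.46 among the higher ones, each 1.38-fold. Of the 278 genes 208 differed by less than 1.5-fold and 8 by 2-fold or more. On 271 of them the arrays of the groups did not overlap, as on 22.3% of all genes tested, and 143 of them lay beyond all 9 wild-type arrays at P0, as did 5.74% of all genes. With quantile normalization 76 genes were higher and 166 lower. Where a called gene had further probe sets above the floor, 205 of 223 moved in the same direction, against 72.4% over all genes. Of the 223 probe sets 32 had the same sign and were called themselves. These probe sets read the same RNA on which the 278 were selected, so this is no separate support.

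The number of called genes rests on the estimate of spread and on single arrays. It was 101 without Lis1 ko/cko replicate 1, 31 without Lis1 ko/cko replicate 2, 522 and 598 without mixed A replicates 1 and 2, and 31 without mixed A replicate 3. A fit on the 6 arrays alone called 1 gene, AI506816. All 275 of the 278 genes that it tested had an unadjusted p under 0.05 there (1608 of 11344 genes did). This is no separate support, because the 278 were selected on the same difference of the same arrays. With the 18 arrays on the mixed A side, an alternative chosen after seeing the data, 22 genes were called, and all 22 are among the 278. Of 48 called genes followed by name 9 kept their call under every setting applied to them other than the 6 arrays alone: P2ry12, Cxcl14, Nxph2, Rpp25, Marchf1, Ebf1, Glod4, Miip and Pfn1. No named gene changed sign in any of these 605 values, which all keep mixed A as the control. Only quantile normalization and leaving out an array can move the difference itself. Under the other settings it is the same number, so its sign could not change.

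Among the gene lists the greatest share of called genes was in that of striatal projection neurons, the GABAergic output cells of the striatum. Of its 21 tested genes 7 fell and 0 rose (33.3%, beside 2.36% of all genes called). A negative difference was seen in 17 of the 21, and in 6462 of all 11779 genes tested. The median was -0.39, beside -0.03 for all genes. The summed linear level of the list was 9250 to 9659 in mixed A and 7898 to 8178 in Lis1 ko/cko. The ko/cko arrays also lay below the Lis1 ko/+ arrays (9017 to 9405), mixed B (9902 to 10908) and the inbred wild type (9276 to 9918).

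The peptides of both output pathways were lower. Penk encodes the enkephalin precursor of the indirect pathway, and it read 8.01, 7.98 and 8.27 in mixed A and 7.28, 7.02 and 7.46 in Lis1 ko/cko (-0.83 ± 0.18, adjusted p = 0.0212). All 3 ko/cko arrays were below all 9 wild-type arrays and below the ko/+ arrays, which stood at 7.97, 7.67 and 8.54. Tac1, the substance P precursor of the direct pathway, is outside the rule for named genes, as are Ikzf1, Gng7 and the genes of this list that did not pass the test. It read 9.41, 9.49 and 9.86 against 8.88, 9.14 and 9.26 (-0.49 ± 0.12, adjusted p = 0.0364). Its ko/cko arrays were also below every wild-type array.

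Transcription factors of the list fell too. The retinoic acid receptor gene Rarb read 8.49, 8.31 and 7.95 in mixed A and 7.41, 7.54 and 7.70 in Lis1 ko/cko (-0.70 ± 0.15, adjusted p = 0.0167). The partner receptor gene Rxrg read 8.52, 8.50 and 8.06 against 7.79, 7.33 and 7.56 (-0.80 ± 0.16, adjusted p = 0.0111). Both receptors bind retinoic acid response elements as heterodimers, and both are strongly expressed in the striatum. For Rxrg mixed B was low as well, at 7.46, 8.18 and 7.74, so its arrays overlapped those of Lis1 ko/cko. Ebf1, a factor of direct-pathway neurons, read 7.07, 7.12 and 7.29 in mixed A and 6.54, 6.48 and 6.25 in Lis1 ko/cko (-0.74 ± 0.13, adjusted p = 0.00558). In Lis1 ko/+ it read 6.76, 6.65 and 6.75, between the other groups. Ikzf1, a zinc finger factor of enkephalin neurons that blood and immune cells also use, was at -0.53 ± 0.14, and Gng7, a G protein subunit of striatal dopamine and adenosine signalling, at -0.57 ± 0.14 (adjusted p = 0.0364 for each).

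Other striatal genes did not pass the test. The D2 dopamine receptor gene Drd2 read 5.89, 5.85 and 5.90 against 5.30, 5.36 and 5.57 (-0.47 ± 0.14, adjusted p = 0.0633). Ppp1r1b, which encodes the dopamine-regulated phosphatase inhibitor DARPP-32, was at -0.39 ± 0.11 (adjusted p = 0.0613) and Foxp2 at -0.45 ± 0.13 (adjusted p = 0.0569), both without overlap of arrays. Bcl11b, a factor shared with deep-layer cortical neurons, was at 0.01 ± 0.11. The D1 receptor gene Drd1 was at -0.03 ± 0.22, with mixed A replicate 3 at 6.49 and the other mixed A arrays at 7.82 and 7.86. The count of 7 was 4 without Lis1 ko/cko replicate 1, 1 without Lis1 ko/cko replicate 2 and 3 without mixed A replicate 3. It was 4 without a filter on low levels, 2 with the 18 arrays and 0 in the fit of 6 arrays. The median was -0.17 without the filter, -0.28 with a stricter filter, with the 18 arrays and in the fit of 6 arrays, and lay between -0.43 and -0.31 over the runs that left out 1 array.

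**Figure D1:**
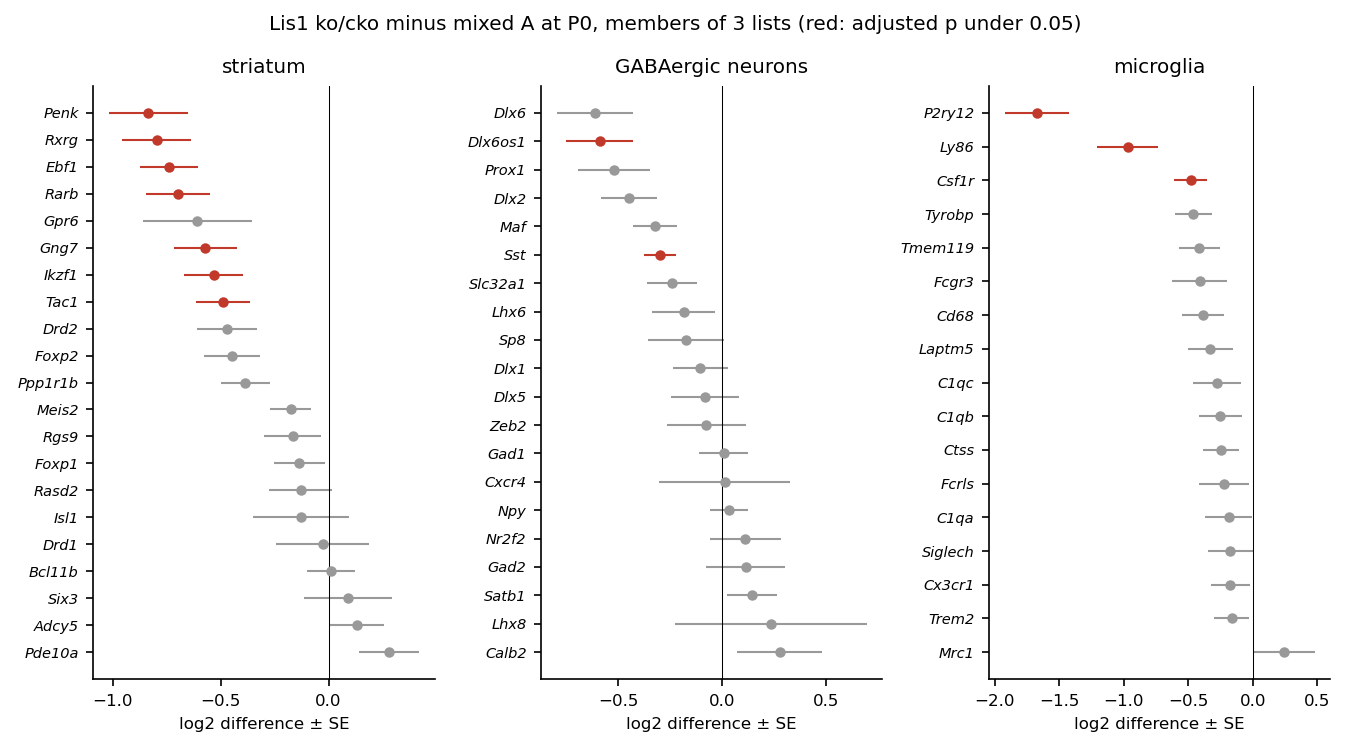
Difference between Lis1 ko/cko and mixed A at P0 (log2 units, points with standard error from limma) for every tested gene of the striatum, GABAergic neuron and microglia lists. Called genes are red: 7 of 21, 2 of 20 and 3 of 17, all to the left of 0.

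The proximal promoters of 3 of the lower genes, chosen by hand, are shown because each holds a match to a known response element or its core. Whether these elements have a part in the falls was not tested. Each run is the 120 bases before the RefSeq gene start in GRCm38.p6, and capitals mark the element. Rarb (chr14:16575477-16575596, minus strand) holds the direct repeat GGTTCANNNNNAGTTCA of a retinoic acid response element at 53 to 37 bases before the start. Sst (chr16:23890845-23890964, minus strand) holds the full cAMP response element TGACGTCA at 48 to 41 bases. Tac1 (chr6:7554941-7555060, plus strand) holds the shorter core TGACG of that element on the opposite strand at 43 to 39 bases.
Rarb: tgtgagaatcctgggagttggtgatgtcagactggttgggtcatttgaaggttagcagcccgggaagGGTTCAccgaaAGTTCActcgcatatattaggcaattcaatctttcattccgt
Sst: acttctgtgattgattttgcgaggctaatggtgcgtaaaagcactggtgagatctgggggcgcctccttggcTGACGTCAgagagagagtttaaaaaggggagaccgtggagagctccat
Tac1: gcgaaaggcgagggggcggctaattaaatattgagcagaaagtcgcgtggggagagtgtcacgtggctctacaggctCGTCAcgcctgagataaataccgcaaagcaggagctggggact

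Both strands of the 120 bases before each start were searched, and TGACGTCA contains TGACG. The Rarb repeat was found in 1 of 32851 promoters, its own. The string searched spells the half-sites exactly as they stand in Rarb, so this count does not show how common such elements are. TGACGTCA was in 1.24% of all promoters, in 2.08% of those of genes tested here and in 2.07% of the 241 promoters matched to 184 of the 228 lower genes. For TGACG these shares were 11.7%, 17.8% and 19.1%. The shares in lower genes are close to those of the tested genes.

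GABAergic interneuron genes were lower in part. Of 20 genes of the GABAergic list 2 fell and 0 rose (10%, beside 2.36% of all genes called) and 8 had a positive difference, with a median of -0.09. Sst, the somatostatin peptide of an interneuron class, read 10.45, 10.54 and 10.36 in mixed A and 10.21, 10.16 and 10.09 in Lis1 ko/cko (-0.30 ± 0.08, adjusted p = 0.0380). Its ko/cko arrays were below all other arrays shown for it in the plot of 12 genes, Lis1 ko/+ included. Dlx6os1, the antisense transcript at the Dlx5 and Dlx6 locus, was at -0.59 ± 0.16 (adjusted p = 0.0476), and transcripts of overlapping genes may share its signal. The genes of GABA synthesis were near mixed A, with Gad1 at 0.01 ± 0.12 and Gad2 at 0.11 ± 0.19. The count of 2 was 0 without any 1 of the Lis1 ko/cko arrays, without mixed A replicate 3, without a filter, without a variance trend, with quantile normalization, with the 18 arrays and in the fit of 6 arrays, 1 with a replicate block, and 3 without mixed A replicate 1. The median was -0.19 without Lis1 ko/cko replicate 1, -0.06 without Lis1 ko/cko replicate 2, -0.25 without mixed A replicate 3 and -0.03 without mixed A replicate 1.

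Cxcl14, Nxph2 and Sstr1, among the 12 largest falls of the comparison, are also expressed by interneurons. Cxcl14, a chemokine of caudal interneuron types, read 6.66, 6.81 and 6.83 in mixed A and 5.51, 5.41 and 5.83 in Lis1 ko/cko (-1.18 ± 0.18, 2.27-fold, adjusted p = 0.00102). Nxph2, a secreted neurexophilin, read 6.32, 6.63 and 6.15 against 5.23, 5.09 and 5.62 (-1.05 ± 0.17, 2.07-fold, adjusted p = 0.00177). On both genes the ko/cko arrays were below all 9 wild-type arrays and all 3 ko/+ arrays. The somatostatin receptor gene Sstr1 was at -0.87 ± 0.22 (adjusted p = 0.0356), with Lis1 ko/cko replicate 2 at 5.25 and the others at 6.48 and 6.43, and without that array it was -0.47 (adjusted p = 0.179).

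A further 5 genes were picked from the called ones after their values were seen. They come from no fixed list, interneuron genes that were not called were not counted beside them, and they say nothing about interneurons as a class. Nxph1, a neurexophilin of interneurons that binds alpha-neurexins, read 9.11, 9.08 and 9.15 in mixed A and 8.54, 8.31 and 8.44 in Lis1 ko/cko (-0.68 ± 0.10, adjusted p = 0.000445). The serotonin receptor gene Htr3a, which marks caudal interneurons, read 6.58, 6.18 and 6.36 against 5.40, 5.58 and 5.64 (-0.84 ± 0.15, adjusted p = 0.00559). Grp, the gastrin-releasing peptide, was at -0.85 ± 0.22, Synpr, a synaptic vesicle protein, at -0.69 ± 0.17, and Lamp5, of neurogliaform cells, at -0.57 ± 0.15. In all 5 genes the 3 ko/cko arrays were below all 9 wild-type arrays.

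**Figure D2:**
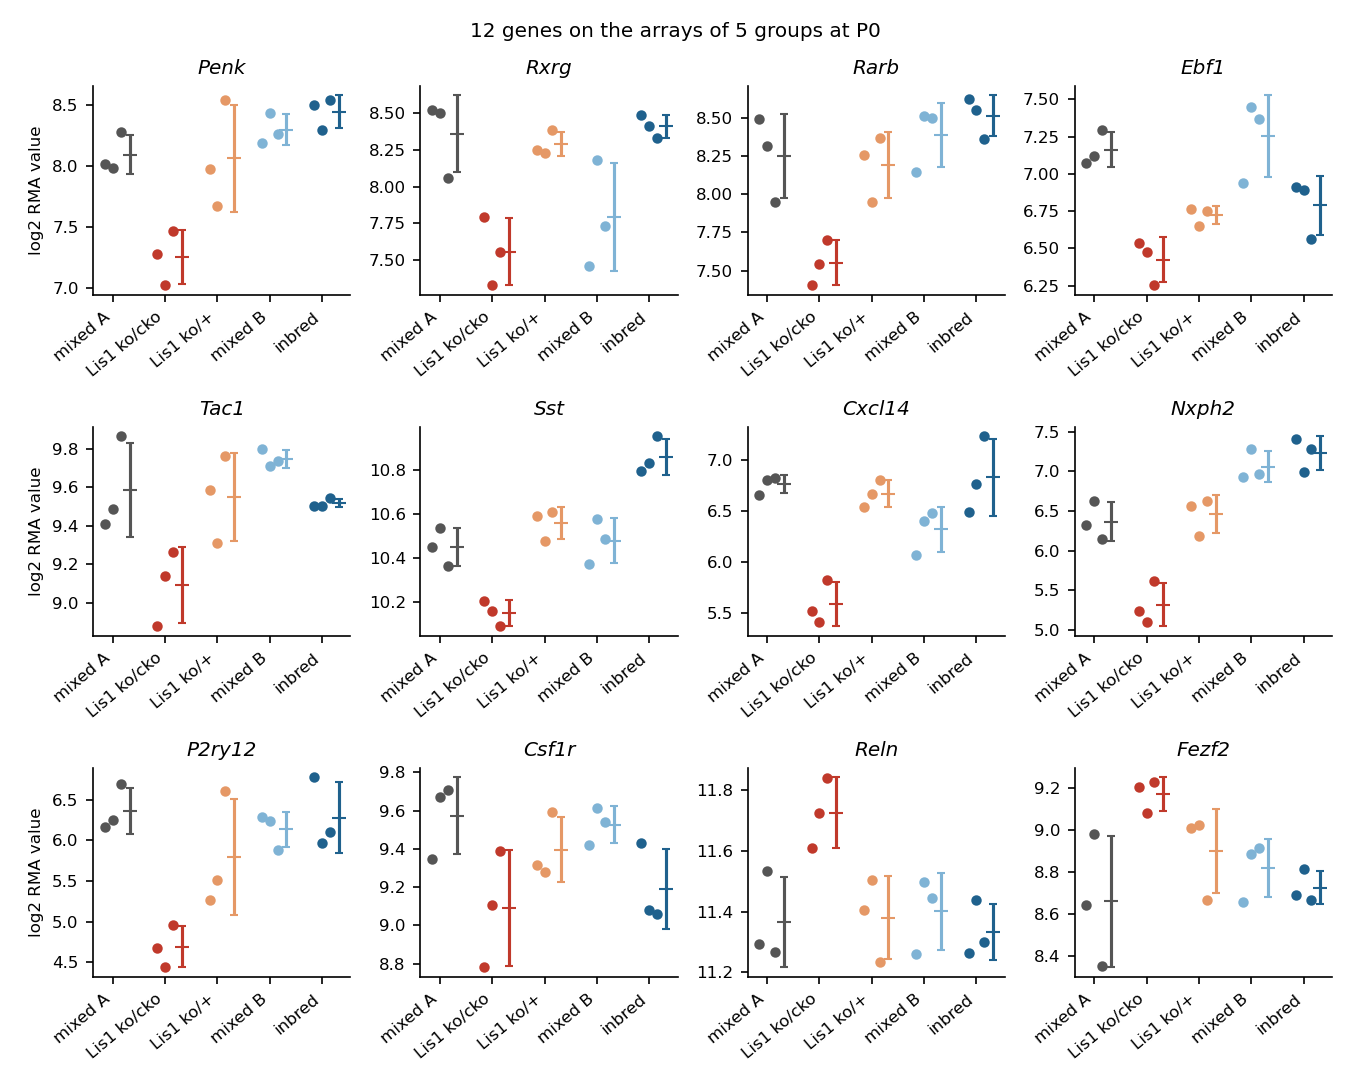
Log2 RMA value of 12 genes on the 3 arrays of each of 5 groups at P0 (points), with the mean and standard deviation beside them. Penk, Rarb, Ebf1, Tac1, Sst, Cxcl14, Nxph2 and P2ry12 are lower in Lis1 ko/cko than on any wild-type array, while Reln and Fezf2 are higher than on any.

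Microglia are the resident macrophages of the brain, and P2ry12 of their list had the greatest fall of any gene named by the rule. Of 17 microglia genes 3 fell and 0 rose (17.6%, beside 2.36% of all genes called). A negative difference was seen in 16 of them (6462 of 11779 over all genes), and the median was -0.28. P2ry12, the ADP receptor of resting microglia, read 6.16, 6.24 and 6.69 in mixed A and 4.67, 4.45 and 4.96 in Lis1 ko/cko (-1.67 ± 0.25, 3.19-fold, adjusted p = 0.000981). In Lis1 ko/+ it read 5.26, 5.51 and 6.61, and on all 9 wild-type arrays it was above the 3 ko/cko arrays. Csf1r, the receptor that microglia need to survive, read 9.35, 9.67 and 9.71 against 8.78, 9.11 and 9.39, so the groups overlapped (-0.48 ± 0.13, adjusted p = 0.0434). Ly86, a partner of a Toll-like receptor homologue, was at -0.97 ± 0.24 (adjusted p = 0.0356), but in mixed B it lay at 5.55, 5.46 and 5.39, below the ko/cko values of 6.18, 5.88 and 5.59. Cx3cr1, the fractalkine receptor, did not pass the test (-0.17 ± 0.15), and the summed level of the list overlapped, at 2354 to 3031 in mixed A and 1897 to 2445 in Lis1 ko/cko. The sums of mixed B (2129 to 2483) and the inbred wild type (2224 to 2604) overlapped those of Lis1 ko/cko as well. Against mixed B the list's median was -0.08 and against the inbred wild type -0.14. For Lis1 ko/+ against mixed A it was -0.18. The count of 3 was 1 without Lis1 ko/cko replicate 2, without mixed A replicate 3, with a stricter filter or with the 18 arrays, and 0 in the fit of 6 arrays. The median was -0.18 without mixed A replicate 3 and -0.39 without mixed A replicate 1, the ends of its range over arrays left out.

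Outside the list, Marchf1 and Pla2g7 are among the 12 largest falls, and Igf1 was added after its values were seen. Marchf1, a ubiquitin ligase that removes class II antigen-presenting molecules from the surface, read 7.93, 7.70 and 8.17 in mixed A and 6.87, 6.997 and 7.26 in Lis1 ko/cko (-0.89 ± 0.13, adjusted p = 0.000445). Pla2g7, the secreted acetylhydrolase of platelet-activating factor, read 8.35, 7.92 and 7.92 against 7.18, 7.30 and 7.13 (-0.86 ± 0.17, adjusted p = 0.0111). Igf1, a growth factor for neurons and glia, read 7.42, 7.24 and 7.51 against 6.54, 6.58 and 6.73 (-0.77 ± 0.11, adjusted p = 0.000445). The ko/cko arrays of all 3 genes were below all 9 wild-type arrays.

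Other large falls had no common list. Klf10, a transcription factor induced by TGF-beta, was at -1.02 ± 0.25 (adjusted p = 0.0357), with mixed A replicate 3 at 8.31 and the other mixed A arrays at 7.32 and 7.15, and without that array it was -0.66 (adjusted p = 0.226). Ptov1 was at -0.99 ± 0.21 (adjusted p = 0.0167). It read 8.98, 9.29 and 8.84 in Lis1 ko/+ and 9.18, 9.26 and 9.21 in the inbred wild type, close to the ko/cko values of 8.90, 9.27 and 8.92. Rpp25, a subunit of the tRNA-processing RNase P, read 6.84, 6.56 and 6.81 in mixed A and 5.85, 5.57 and 5.90 in Lis1 ko/cko (-0.97 ± 0.15, adjusted p = 0.00171), below every wild-type array. B3galt1, a glycosyltransferase, was at -0.94 ± 0.24 (adjusted p = 0.0365) and Rpgrip1, a protein of the ciliary transition zone, at -0.90 ± 0.19 (adjusted p = 0.0159). For both the inbred wild type was lower than Lis1 ko/cko, with B3galt1 at 6.68, 6.48 and 6.49 and Rpgrip1 at 5.80, 5.95 and 5.98. The unnamed gene AI506816, singled out after its values were seen, had the greatest difference of any called gene, -2.80 ± 0.47, and read 6.14, 6.67 and 6.81 in mixed A but 3.80, 3.83 and 3.58 in Lis1 ko/cko. In mixed B it was at 3.50, 3.65 and 3.76, in the inbred wild type at 3.69, 3.25 and 3.52, and in Lis1 ko/+ at 3.76, 7.47 and 6.67.

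The rises were fewer and smaller. The 12 largest without overlap of arrays ranged from Arfgef2 at 0.53 ± 0.12 to Nav1 at 0.68 ± 0.15. Nav1, a microtubule-binding protein of growth cones, read 9.48, 9.51 and 9.45 in mixed A and 10.41, 9.98 and 10.07 in Lis1 ko/cko (adjusted p = 0.0241). Trio, a protein of axon guidance, read 9.40, 9.12 and 8.86 against 9.73, 9.90 and 9.62 (0.62 ± 0.14, adjusted p = 0.0217), above all 9 wild-type arrays. The actin-binding profilin gene Pfn1 read 10.20, 10.27 and 10.35 against 10.77, 10.86 and 10.88 (0.56 ± 0.07, adjusted p = 0.000432). Mixed B, at 10.76, 10.90 and 10.82, and the inbred wild type, at 10.90, 11.13 and 11.09, were as high as the mutant on Pfn1.

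Nfasc, an adhesion molecule of the axon initial segment, was at 0.58 ± 0.16 and Tsc1, an inhibitor of mTOR signalling, at 0.55 ± 0.15. For Tsc1 the difference was 0.34 without mixed A replicate 3 (adjusted p = 0.296), and its call was lost under 9 of 13 settings. Miip, whose product inhibits cell migration, was at 0.68 ± 0.12 (adjusted p = 0.00558), and Magel2, an imprinted ubiquitin ligase regulator, at 0.57 ± 0.15. Arfgef2, a Golgi exchange factor that is mutated in human periventricular heterotopia, had adjusted p = 0.0283. Slc38a6 (0.65 ± 0.17), Csf2ra (0.62 ± 0.16), Plekhh1 (0.58 ± 0.15) and Abhd14b (0.57 ± 0.14) complete the 12. Of these genes Miip, Trio, Abhd14b, Magel2 and Tsc1 were above every wild-type array. Tmem87a, singled out after its values were seen, had a greater difference, 2.12 ± 0.53, but its arrays overlapped, at 8.21, 5.12 and 5.25 in mixed A and 8.19, 8.37 and 8.38 in Lis1 ko/cko.

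Cortical lists held few called genes. Of 19 deep-layer genes 1 rose (5.26%, beside 2.36% of all genes called), Fezf2, the factor that specifies subcortical projection neurons. It read 8.64, 8.98 and 8.35 in mixed A and 9.20, 9.08 and 9.23 in Lis1 ko/cko (0.51 ± 0.13, adjusted p = 0.0366). In the deep-layer list 13 of the 19 differences were positive, with a median of 0.20, beside -0.03 for all genes. This median was 0.19 against mixed B and -0.01 against the inbred wild type. Of 18 upper-layer genes 0 were called in limma, with a median of -0.01. Reln, the secreted guide of radially migrating neurons, was the called member of 19 Reelin pathway genes (5.26%). It read 11.29, 11.53 and 11.27 against 11.61, 11.73 and 11.84 (0.36 ± 0.09, adjusted p = 0.0357), above every wild-type array. In the Reelin list 14 of the 19 differences were positive, with a median of 0.13. That median was 0.21 against mixed B and 0.02 against the inbred wild type. Of 45 axon guidance and adhesion genes 2 rose (4.44%), the repellent Slit1 (0.42 ± 0.10) and the semaphorin receptor gene Plxnb1 (0.39 ± 0.10). A positive difference was seen in 33 of the 45 (5317 of 11779 over all genes). In the cortex and hippocampus list 1 of 20 fell (5%), Arpp21, a cAMP-regulated phosphoprotein that the striatum also expresses (-0.60 ± 0.12, adjusted p = 0.0125).

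Proliferation genes tended below 0 without many calls. Of 45 cell cycle genes 2 fell (4.44%, beside 2.36% of all genes called). They were the cyclin gene Ccna2 (-0.61 ± 0.15, adjusted p = 0.0357) and the spindle checkpoint gene Mad2l1 (-0.49 ± 0.11, adjusted p = 0.0217). In all 38 of the 45 were negative (6462 of 11779 over all genes), and the median was -0.17. In the list of 30 radial glia and progenitor genes 1 rose (3.33%), the growth factor receptor gene Fgfr1 (0.56 ± 0.15, adjusted p = 0.0479), with arrays that overlap. Of 26 astrocyte genes 1 fell (3.85%), the filament gene Gfap. It read 6.41, 7.09 and 6.89 in mixed A and 5.80, 5.95 and 6.27 in Lis1 ko/cko (-0.79 ± 0.21, adjusted p = 0.0408). Mixed B was as low as the mutant on Gfap, at 6.52, 5.87 and 5.75.

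The choroid plexus and meningeal lists held no called gene in limma. Of 12 choroid plexus genes 11 had a positive difference (5317 of 11779 over all genes), with a median of 0.35. The summed level of the list was 11831 to 14327 in mixed A and 16047 to 16841 in Lis1 ko/cko. Of 22 meningeal and fibroblast genes 16 were positive, with overlapping sums of 12142 to 13647 and 12691 to 17989. The part of these tissues in the other differences was not tested. The ependyma and cilia list held 2 falls among 16 (12.5%, beside 2.36% of all genes called). They were Rpgrip1 and the sperm-tail and cilium gene Tekt1 (-0.59 ± 0.16). Oxidative phosphorylation had 1 fall among 65 (1.54%), the ATP synthase subunit gene Atp5c1 (-0.17 ± 0.05), and 56 negative differences (6462 of 11779 over all genes). The call of Atp5c1 was lost under 10 of 13 settings. The list's median was -0.13 against mixed A and -0.16 against the inbred wild type, but 0.02 against mixed B. In limma 0 of 37 synapse genes, 0 of 33 ion channels and 0 of 23 immediate early genes were called.

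**Figure D3:**
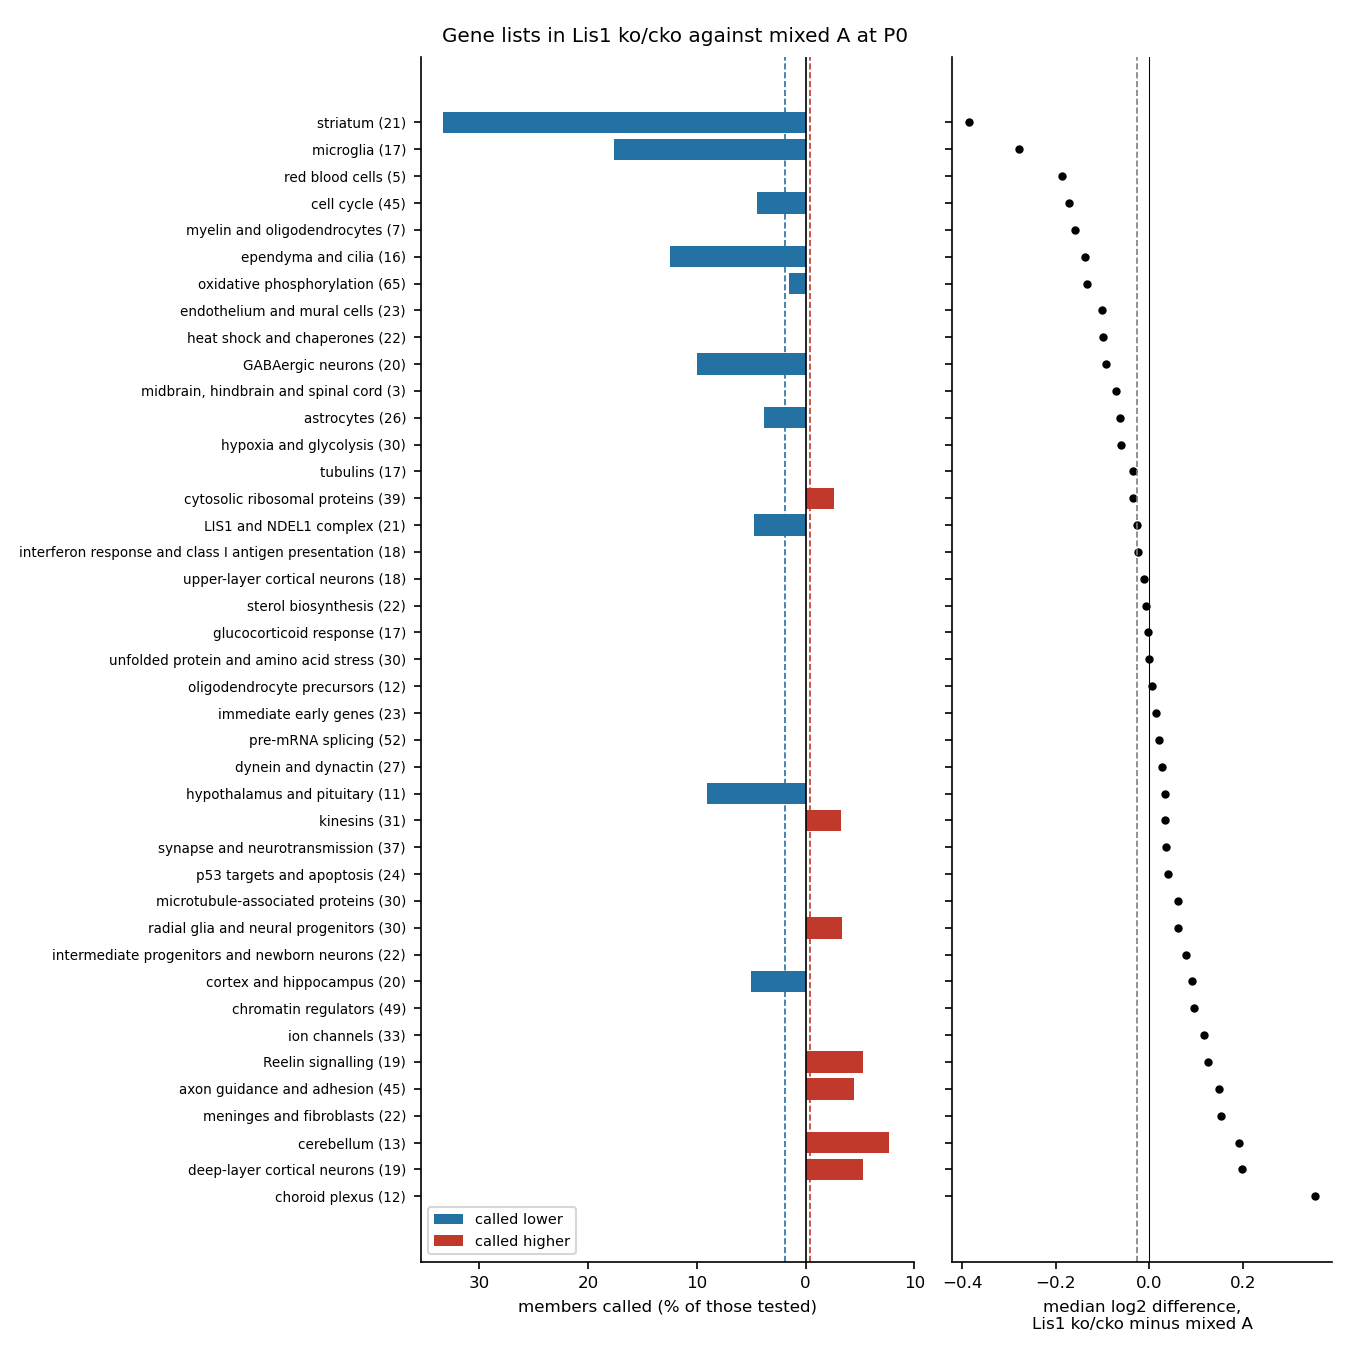
Share of tested members called lower or higher (bars, percent, left) and median log2 difference (points, right) for each gene list in Lis1 ko/cko against mixed A at P0, with the number of tested members in brackets and dashed lines at the values of all genes. The striatum list has the greatest share called, 33.3%, and the choroid plexus list the highest median, 0.35, with none called.

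Genes next to Pafah1b1 were examined because chromosome around a targeted locus travels with it through crosses. Among the 50 nearest tested genes on each side 6 were called (6%, beside 2.36% of all genes tested), 3 higher and 3 lower, and the median difference of these 100 genes was 0.04. Pfn1, Myo1c, a membrane-bound myosin, and Slc43a2, an amino acid transporter, were higher. Glod4, at 9.71, 9.81 and 9.63 in mixed A and 9.30, 9.27 and 9.29 in Lis1 ko/cko, was lower (-0.43 ± 0.07, adjusted p = 0.00171). In the inbred wild type Glod4 read 9.35, 9.30 and 9.31, close to the ko/cko values. Emc6, of the membrane protein insertion complex, was at -0.26 ± 0.07, and Tekt1 is the remaining gene. The 4 nearest genes on either side held no call.

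**Figure D4:**
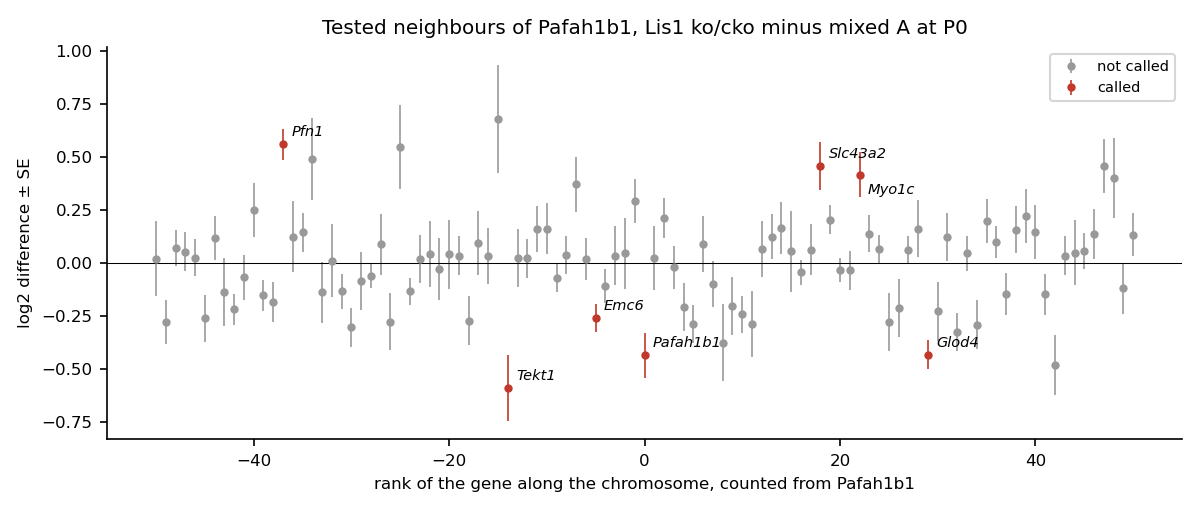
Difference between Lis1 ko/cko and mixed A at P0 (log2 units with standard error) for Pafah1b1 and the 50 tested genes on each side, by rank along the chromosome. The 6 called neighbours, in red, lie on both sides of 0 and are spread over the interval.

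The calls depended on the wild type used. Against mixed B 3862 genes (32.8%) were called and against the inbred wild type 2140 (18.2%). Where a gene had to differ from both mixed wild types in the same direction 39 remained (0.331%), 36 of them lower. Where it had to differ from all 3 wild types, a rule added after seeing the data, 9 remained (0.0764%), all lower: P2ry12, Nxph2, Pla2g7, Igf1, Nexn, Usf1, Prpf31, Ss18l2 and 3110009E18Rik. Of these, Nexn, Usf1 and Prpf31 were picked for description after their values were seen. Nexn, an actin-binding protein, read 5.38, 5.01 and 5.51 in mixed A and 4.60, 4.57 and 4.55 in Lis1 ko/cko (-0.73 ± 0.13, adjusted p = 0.00558). Usf1, a helix-loop-helix transcription factor, read 7.99, 8.07 and 8.48 against 7.45, 7.14 and 7.83 (-0.70 ± 0.13, adjusted p = 0.00558). The splicing factor gene Prpf31 was at -0.49 ± 0.10 (adjusted p = 0.0102). These comparisons share the mutant arrays, so they are not separate evidence.

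Lis1 ko/+ brains, compared with the same mixed A arrays, held 0 called genes in limma, with 830 at an unadjusted p under 0.05. Directly, 67 genes differed between Lis1 ko/cko and Lis1 ko/+ (0.569%), 49 lower and 18 higher in ko/cko. In that test 3 of 21 striatal genes were lower: Penk (-0.80, adjusted p = 0.0372), Rxrg (-0.73, adjusted p = 0.0340) and Rarb (-0.64, adjusted p = 0.0416). Nxph2 (-1.15, adjusted p = 0.00189), Cxcl14 (-1.09, adjusted p = 0.00582), Marchf1 (-0.86, adjusted p = 0.00189), Sst (-0.41, adjusted p = 0.0138) and P2ry12 (-1.10, adjusted p = 0.0372) were lower as well, and Trio was higher (0.78, adjusted p = 0.00847). Ptov1 was at -0.01 and Pafah1b1 at 0.07 (adjusted p = 0.804). The count was 32 without Lis1 ko/cko replicate 1, 3 without Lis1 ko/cko replicate 2, 4 without Lis1 ko/+ replicate 3 and 12 in a fit of the 6 arrays.

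The embryo at E14 gave no called gene in limma between Lis1 ko/cko and mixed A, with 1770 at an unadjusted p under 0.05. The brain regions in those samples varied: over 33 genes of midbrain, hindbrain and cord the mean level was 5.89, 4.35 and 4.30 log2 units in mixed A and 4.34, 6.11 and 4.40 in Lis1 ko/cko, against 3.997 to 4.16 over the 6 arrays at P0. Of 269 of the 278 genes tested there 114 had the sign they had at birth (42.4%, and 41.8% of all genes). The striatal median was -0.14 and that of microglia 0.46.

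At P14, in other animals, 1709 genes were called (13.9%). Of 273 of the 278 genes tested there 178 had the same sign (65.2%, and 53.2% of all genes). Called at both ages were 37, which is 13.6% of the genes from birth, beside 13.9% of all genes tested at P14. They are 2.17% of the genes called at P14, beside 2.36% of all genes called at birth. Genes called at birth were thus not called at P14 more often than genes in general. Of the 37 genes 29 were lower and 3 higher at both ages. Rxrg was at -0.80 at birth and -0.76 at P14, Grp at -0.85 and -0.52, Dlx6os1 at -0.59 and -0.72, Nexn at -0.73 and -0.69, Usf1 at -0.70 and -0.62, and Ccna2 at -0.61 and -0.56. Pafah1b1 was at -0.43 and -0.49 and Pfn1 at 0.56 and 0.69. A further 3 genes were picked after their values were seen. Tmem100, a membrane protein of BMP signalling, fell at both (-0.70 and -1.34), as did the iron exporter gene Slc40a1 (-0.79 and -0.79) and the retinoid-binding protein gene Rlbp1 (-0.52 and -1.10). The exceptions were Gfap, at -0.79 and 0.73, Tekt1, at -0.59 and 0.42, Cdadc1, at -0.46 and 0.36, Dazap2, at -0.35 and 0.23, and Plekhh1, at 0.58 and -0.92.

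**Figure D5:**
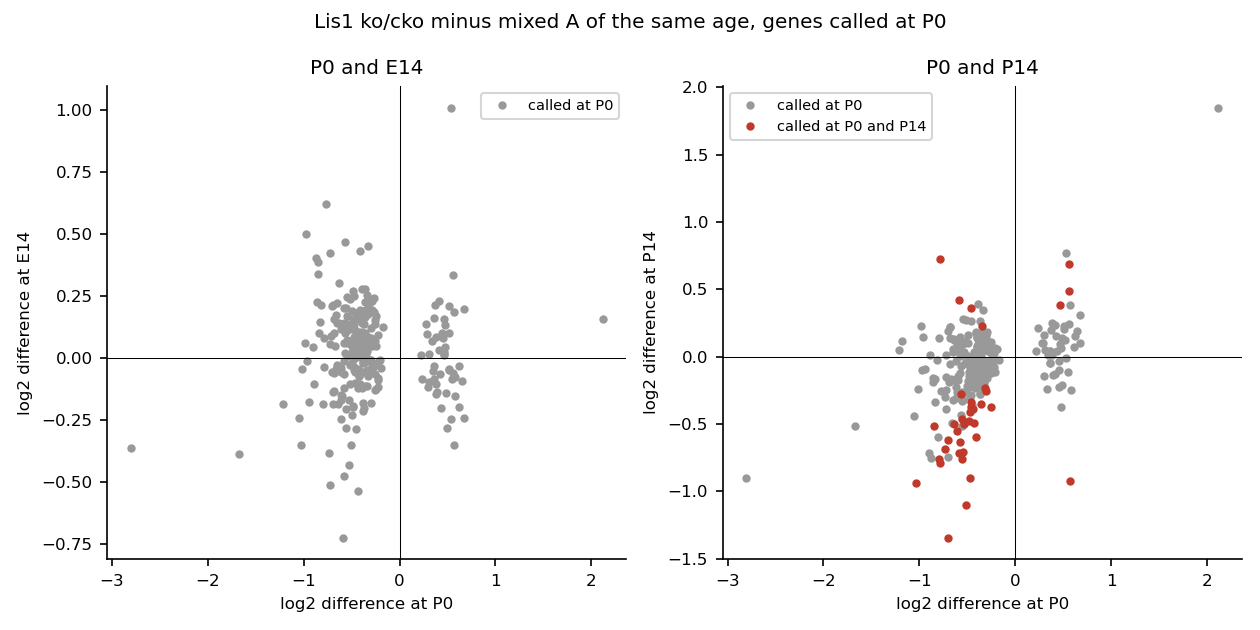
Difference between Lis1 ko/cko and mixed A of the same age (log2 units) for genes called at P0, at P0 on the horizontal axis and at E14 or P14 on the vertical axis. At E14 none is called and 114 of 269 share the sign. At P14 37 are called (red, 13.6%, beside 13.9% of all genes tested), 32 of them with the sign they had at P0.

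Whether a change differed with age was tested directly as an interaction. Between P0 and E14 it differed for 792 genes (6.07%), 123 of them among the 278, and between P0 and P14 for 991 (7.59%), 87 of them among the 278. Both tests contain the difference at P0 on which the 278 were selected. The selection raises the counts among them, so these do not show that the changes at birth are particular to that age. For Cxcl14 the change at birth was 1.39 lower than at E14 (adjusted p = 0.00124), where it was near the floor at 4.53 in mixed A and 4.74 in Lis1 ko/cko. For Penk and Rarb the test against the other ages did not pass (adjusted p = 0.348 and 0.387 with E14, 0.696 and 0.969 with P14). Sst, at 0.10 at P14, and Nxph1, at 0.14, did differ from P14 (adjusted p = 0.0342 and 0.0156). Without single arrays the count for E14 was 276 and 409 (Lis1 ko/cko at P0, replicates 1 and 2), 1432 and 57 (mixed A at P0, replicates 2 and 3), 1709 and 42 (Lis1 ko/cko at E14, replicates 1 and 3) and 516 and 395 (mixed A at E14, replicates 2 and 3). That for P14 was 570 (Lis1 ko/cko at P0, replicate 2), 347 (mixed A at P0, replicate 3), 197, 318 and 2002 (Lis1 ko/cko at P14, replicates 1, 2 and 3) and 551 and 638 (mixed A at P14, replicates 2 and 3).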

How the data were processed

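Gene expression was measured on Affymetrix arrays of mouse brain RNA. The authors deposited log2 values, summarized by RMA per the submitters' processing notes, with the version not given in the sources used here. They range from 2.61 to 14.2. Of 45101 probe sets 34945 name 1 gene in the platform annotation and were used, and each gene was read from its probe set of highest mean on the 78 arrays (18193 genes, symbols updated through RefSeq GRCm38.p6). Genes whose highest group mean reached 5.25 were tested.

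Linear models with 1 mean per group were fitted in R 4.3.3 with limma 3.58.1 (lmFit and eBayes with a trend) and version 1.17.8 of data.table, on all 30 arrays of P0, so that 10 groups share 1 estimate of spread, and on all 78 arrays for interactions with age. P-values were adjusted by Benjamini-Hochberg. The procedure was tested on simulated data. The number of arrays, 3 per group, limits the precision.

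Named genes are the 12 largest rises and 12 largest falls among called genes whose arrays do not overlap, up to 4 called members of each of 42 lists, the targeted genes, called neighbours of Pafah1b1 and 6 genes of largest interaction per age. Unnamed genes are passed over by this rule. Further genes named in the text were chosen after their values were seen. The samples, lists and rule were chosen with earlier results of these data known. Ages are compared only through differences from the wild type of the same age.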

Additional observations from a re-analysis of the deposited data

Results flagged for a closer look

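The change of Lis1 ko/cko against mixed A differed between P0 and E14 for 792 genes and between P0 and P14 for 991 genes, by a test of the difference itself.

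With E14 as the other age, the 3 long noncoding RNAs Miat, Snhg11 and Meg3 had the largest positive differences, 2.12, 1.87 and 1.56 log2 units. Meg3, an imprinted transcript, read 10.68, 11.46 and 10.16 in mixed A at P0 and 12.01, 11.93 and 11.63 in Lis1 ko/cko, so mixed A replicate 3 was lowest. Miat read 8.60, 9.61 and 7.58 against 10.40, 10.01 and 9.68, and Snhg11 read 8.25, 8.81 and 7.83 against 9.90, 9.77 and 9.75. None of these 3 was called at P0 in limma (adjusted p = 0.108 for Miat, 0.0611 for Snhg11 and 0.0732 for Meg3). At E14 Miat, Snhg11 and Meg3 were at -0.69, -0.36 and -0.47. The difference was -1.47 for Ly86, -1.40 for C1qb, a complement gene of microglia, and -1.39 for Cxcl14. The microglial genes Ly86 and C1qb were at 0.50 and 1.15 at E14, where no gene was called in limma (1770 at an unadjusted p under 0.05), and at -0.97 and -0.25 at P0. C1qb was not called at P0 in limma (adjusted p = 0.382).

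With P14 as the other age, the difference was -2.30 for the kinase gene Stk25, which was at 2.63 at P14 and at 0.33 at birth, and 2.02 for Thap2. It was 1.85 for Egr2 and 1.56 for Arc, both immediate early genes, which were at -1.81 and -1.60 at P14 and at 0.04 and -0.04 at birth. Kcnj9, a potassium channel gene, stood at 1.80 and Zfp950 at 1.61. Their P0 means were below the floor too, at 4.08 and 4.12 in mixed A and 4.46 and 5.18 in Lis1 ko/cko. Zfp950 was also below it at P14, at 4.96 in mixed A and 4.41 in Lis1 ko/cko.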

How the results depend on the processing

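The 278 called genes became 135 without a filter, 1 with only the 6 arrays, 22 with the 18 arrays of the mixed A side, 3862 with mixed B as control, 2140 with the inbred wild type, 39 with both mixed wild types required and 9 with all 3. Leaving out 1 array gave 31 to 598. Of these alternatives the 18 arrays, the inbred control and all 3 wild types were chosen after seeing the data. Pafah1b1 kept -0.43 with an adjusted p of 0.197 (6 arrays) and 0.102 (18 arrays), stood at 0.13 with mixed B, and ranged from -0.47 to -0.40 over single arrays left out. The 67 genes between ko/cko and ko/+ became 108 with every probe set, 12 with 6 arrays and 3 to 64 over arrays left out. The 0 genes of ko/+ became 1 with every probe set and 0 to 2 over arrays left out. The interaction counts ranged from 42 to 1709 (E14) and from 197 to 2002 (P14). Correlations of same-numbered arrays were 0.25, -0.17 and 0.18, and with 3 arrays a group these cannot decide whether the numbers are a pairing. A replicate block gave 275 genes, 252 of them among the 278. A stricter filter gave 340, no variance trend 213, quantile normalization 242 and every probe set 325. Of 605 values of 48 named genes 346 kept the call and 259 lost it. With 3 arrays a group, small changes may be missed.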
